A study of Mus musculus with 6 samples.

Results

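Ces2c, Cdk5r1, Gpr15 and Als2cl are 4 of the 28914 genes measured by RNA sequencing in CD4 T cells from mouse spleen. They were chosen by their measured levels in these same libraries: the first 3 for being highest when the transcriptional repressor Blimp-1 is labelled absent, and Als2cl for being lowest there and highest when Blimp-1 is overexpressed. Their differences between the groups are therefore given as a description, with no test. Total CD4 T cells were sorted from the spleens of NOD mice aged 12 weeks and received no further stimulation of the T cell receptor. NOD mice develop autoimmune diabetes without treatment. There were 2 libraries in each of 3 groups: Blimp1 knockout cells (CKO), Blimp-1 overexpression cells (BTg) and WT control cells. All 3 groups share the NOD background, tissue and age. No source used here names the driver of the deletion, the deleted part of the gene or the promoter of the transgene. None says whether libraries came from different mice either, so each spread below is one between libraries.

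Each of the 4 gene products has a well described job outside this setting. Ces2c encodes a carboxylesterase, a serine hydrolase of the endoplasmic reticulum that cleaves ester bonds in drugs and neutral lipids, and its family is best known from liver and intestine. Cdk5r1 encodes p35, the partner that switches on the kinase Cdk5. The pair is best known from neurons, and Cdk5 also phosphorylates the actin regulator coronin 1A in T cells. Gpr15 encodes a G protein-coupled receptor that directs T cells, regulatory T cells among them, to the large intestine. Als2cl encodes a protein whose human counterpart binds Rab5, a small GTPase of early endosomes. Blimp-1, the product of Prdm1, binds DNA sites built around the letters GAAAG and recruits corepressors.

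The 4 genes lie on 4 chromosomes, with positions on GRCm38. Ces2c (ENSMUSG00000061825) spans chr8:104847068-104854483 on the plus strand and is coded in 12 exons. Cdk5r1 (ENSMUSG00000048895) spans chr11:80477023-80481184 on the plus strand, with its coding region in 1 exon. Gpr15 (ENSMUSG00000047293) spans chr16:58717433-58719070 on the minus strand and has 1 exon in all. Als2cl (ENSMUSG00000044037) spans chr9:110879870-110900530 on the plus strand, with 8 annotated transcripts, 4 of them coding, and up to 25 coding exons.

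RefSeq promoter windows of build GRCm38.p6, running from 250 bases before to 50 bases after the gene start, were matched for 3 of the 4 genes, all but Cdk5r1. They are shown because the groups differ in Blimp-1. The capitals mark GAAAG, or CTTTC where the match is on the other strand. Als2cl has 2 such windows, of which the upstream one is printed. The RefSeq start used for Gpr15 lies 198 bases downstream of the GENCODE start, and that of Als2cl 304 bases downstream. The windows are chr8:104846818-104847117 on the plus strand for Ces2c, chr16:58718823-58719122 on the minus strand for Gpr15 and chr9:110879924-110880223 on the plus strand for Als2cl.

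Ces2c: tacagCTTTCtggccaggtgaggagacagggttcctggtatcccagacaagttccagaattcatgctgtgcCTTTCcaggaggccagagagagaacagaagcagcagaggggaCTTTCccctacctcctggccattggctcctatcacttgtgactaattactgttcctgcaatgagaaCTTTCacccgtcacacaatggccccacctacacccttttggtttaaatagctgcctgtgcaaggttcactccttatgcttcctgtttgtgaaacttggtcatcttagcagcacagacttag

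Gpr15: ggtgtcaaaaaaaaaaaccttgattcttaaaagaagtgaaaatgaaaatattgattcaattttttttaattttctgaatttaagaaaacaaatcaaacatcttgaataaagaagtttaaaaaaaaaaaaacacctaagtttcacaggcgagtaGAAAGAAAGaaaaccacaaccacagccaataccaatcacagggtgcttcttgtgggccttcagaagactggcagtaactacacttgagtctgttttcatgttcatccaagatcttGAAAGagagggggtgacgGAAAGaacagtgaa

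Als2cl: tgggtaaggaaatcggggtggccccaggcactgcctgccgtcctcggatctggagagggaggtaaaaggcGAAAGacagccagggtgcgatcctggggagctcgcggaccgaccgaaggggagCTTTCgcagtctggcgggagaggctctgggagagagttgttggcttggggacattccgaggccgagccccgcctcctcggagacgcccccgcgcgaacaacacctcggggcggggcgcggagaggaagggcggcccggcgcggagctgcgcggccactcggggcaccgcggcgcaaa

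The Ces2c window held 4 matches to GAAAG, all on the minus strand. The match nearest the start is part of the longer GTGAAAG, which contains GAAAG, with its first letter in the printed line at position -71 from the gene start. The Gpr15 window held 4 matches, all reading GAAAG in the printed line, of which 2 overlap by a letter. The printed Als2cl window held 2, on opposite strands, and the second Als2cl window 0. Of 32851 windows of this length in the RefSeq table, 57.3% held GAAAG and 4.24% held GTGAAAG on either strand. GCGTG, the core letters of sites of the aryl hydrocarbon receptor, was in none of the 4 windows of these genes and in 32.4% of all windows. These matches are letters in a window only, and no binding was measured.

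**Figure D1:**
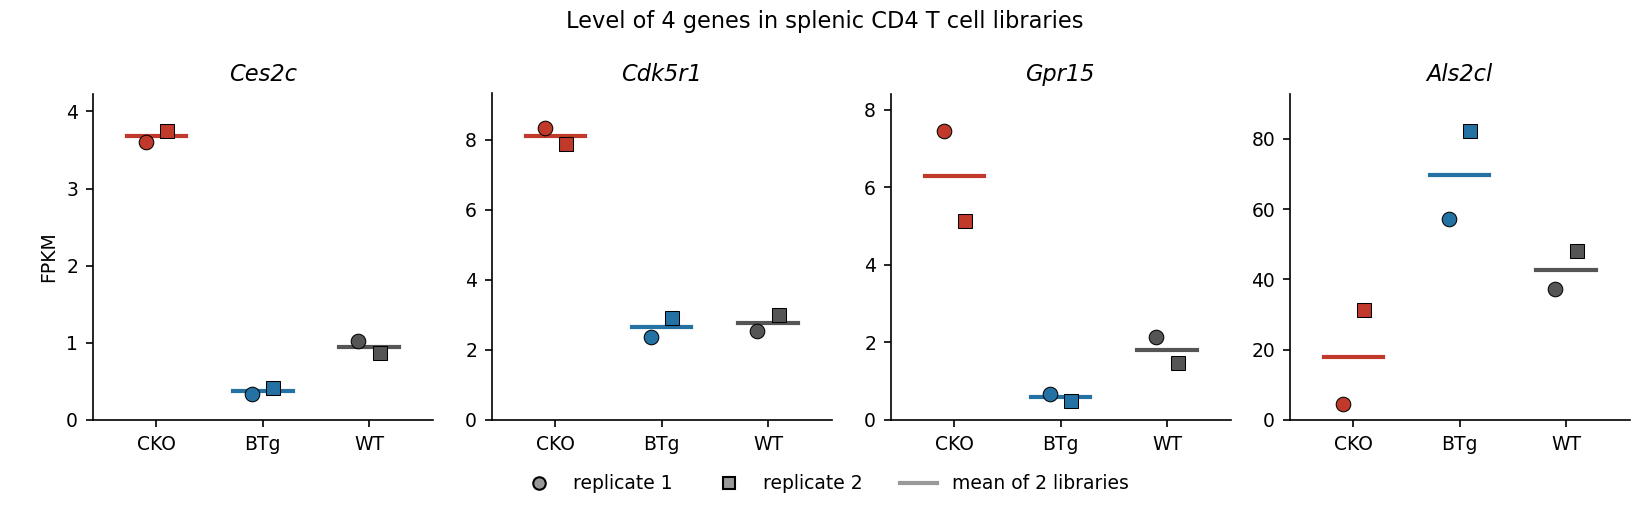
Level of Ces2c, Cdk5r1, Gpr15 and Als2cl (vertical axis, FPKM as deposited) in the CKO, BTg and WT groups. Each point is 1 library and the bar is the mean of 2; Cdk5r1 overlaps between BTg and WT, and Als2cl is spread from 4.67 to 31.4 FPKM within CKO.

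The libraries held 14958458 to 17799091 reads counted on genes. Prdm1 checks the labels: it stood at 0.849 and 0.669 FPKM in CKO, 19.6 and 30.1 FPKM in BTg, and 0.458 and 0.628 FPKM in WT. Its log2 difference was 4.04 (SE 0.26) in BTg against WT (limma adjusted p = 0.0221) and 0.19 (SE 0.26) in CKO against WT (limma adjusted p = 1). The first call was lost with any 1 library left out, at limma adjusted p from 0.0694 to 0.540, and after quantile normalization, at 0.105. It was thus no lower in CKO than in WT, and since the values sum over the whole gene and the deleted part is not named, the level cannot check the deletion. CKO below means the libraries labelled so. CKO replicate 1 lay at 69.9 on the first principal component (56.5% of the variance), and the other libraries between -35.09 and -1.196. Its 8 CD4 T cell markers summed to 2525 RPM, which are reads scaled to library total only, and its 8 neutrophil markers to 13090. The same sums were 3807 and 389 RPM in CKO replicate 2. T cell markers ranged from 4521 to 5235 in BTg and from 3538 to 4952 in WT. Neutrophil markers ranged from 78.0 to 82.1 in BTg and from 119 to 318 in WT. The 7 plasma cell markers summed to 6115 and 1617 RPM in CKO, 930 and 611 in BTg, and 1080 and 1065 in WT. The part of such cells in the Prdm1 level of CKO was not tested. In none of the lists was a measured marker at 0 in all 6 libraries.

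**Figure D2:**
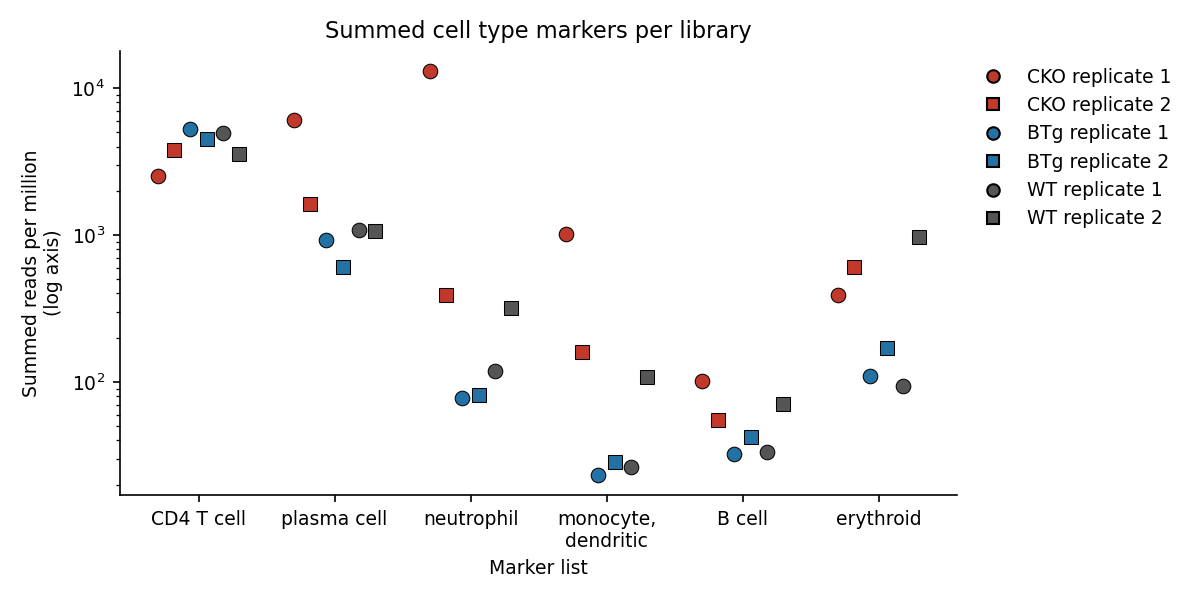
Summed level of the markers of 6 cell types (vertical log axis, RPM) in each of the 6 libraries. CKO replicate 1 has the lowest T cell sum, 2525, and the highest neutrophil sum, 13090.

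Ces2c, the carboxylesterase gene, was several times higher in CKO and lower in BTg than in WT. It stood at 3.61 and 3.75 FPKM in CKO, from 261 and 270 reads, at 0.339 and 0.411 FPKM in BTg, from 21 and 25 reads, and at 1.02 and 0.871 FPKM in WT, from 74 and 54 reads. FPKM are reads scaled to library total and gene length. The 3 groups did not overlap, and the 2 libraries of each group lay close together. The means were 3.68 ± 0.0980 FPKM in CKO, 0.375 ± 0.0513 in BTg and 0.948 ± 0.108 in WT (SD, n = 2 each). The CKO mean was 3.88 times the WT mean, with a range of 3.52 to 4.30 over the 4 pairs of libraries. The BTg mean was 0.396 times the WT mean, with a range of 0.331 to 0.472, and 0.102 times the CKO mean. The low BTg counts limit these ratios. The exact 95% binomial interval was 0.210 to 0.518 FPKM for BTg replicate 1 and 0.266 to 0.607 FPKM for BTg replicate 2. That of the lower WT library was 0.654 to 1.14 FPKM. These intervals cover counting error only and are no test between groups, for a gene chosen on these values.

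Reads of Ces2c can be shared with near copies in its gene cluster. Of its 2248 distinct stretches of 50 bases, 36.1% also occur in transcripts of other genes, and 32.7% in the pseudogene Ces2d-ps alone. No source used here says how the authors divided such reads, and the share holds for stretches of 50 bases only. The level of Ces2c is thus uncertain by an amount that was not measured. Ces2d-ps had 33 and 51 reads in CKO, 5 and 3 in BTg, and 10 and 10 in WT. Its groups stood in the same order as those of Ces2c, at lower counts. The predicted genes Gm8798 and Gm6831 also share stretches with Ces2c, 16.1% and 5.78% of them. Gm6831 had 51 and 33 reads in CKO, 4 and 6 in BTg, and 10 and 22 in WT, while Gm8798 overlapped between CKO, with 23 and 81 reads, and WT, with 36 and 25.

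Cdk5r1, the gene of the Cdk5 activator p35, was higher in CKO than in both other groups, which overlapped. It stood at 8.33 and 7.89 FPKM in CKO, from 373 and 352 reads, at 2.37 and 2.92 FPKM in BTg, from 91 and 110 reads, and at 2.53 and 3.00 FPKM in WT, from 113 and 115 reads. The means were 8.11 ± 0.311 FPKM in CKO, 2.65 ± 0.390 in BTg and 2.76 ± 0.332 in WT (SD, n = 2 each). The CKO mean was 2.94 times the WT mean, with a range of 2.63 to 3.30 over the pairs of libraries. The BTg mean was 0.959 times the WT mean, with a range of 0.792 to 1.16. So the description of opposed changes with loss and gain of Blimp-1 did not hold for Cdk5r1: its difference was on the CKO side, and BTg and WT differed by less than the spread between libraries. None of the 4161 stretches of 50 bases in its transcripts occurs in those of another gene.

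Gpr15, the gut homing receptor gene, had the order of Ces2c with a wider spread within groups. It stood at 7.44 and 5.13 FPKM in CKO, from 217 and 149 reads, at 0.680 and 0.490 FPKM in BTg, from 17 and 12 reads, and at 2.13 and 1.48 FPKM in WT, from 62 and 37 reads. The groups did not overlap. The means were 6.29 ± 1.64 FPKM in CKO, 0.585 ± 0.135 in BTg and 1.80 ± 0.458 in WT (SD, n = 2 each). The CKO mean was 3.48 times the WT mean, with a range of 2.41 to 5.03. The BTg mean was 0.324 times the WT mean, with a range of 0.230 to 0.460. The counting interval of the lower WT library was 1.04 to 2.04 FPKM, and that of the higher BTg library 0.396 to 1.09 FPKM. These intervals overlapped, which does not by itself say whether the counts behind them, 37 and 17 reads, differ. That pair was not tested directly.

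Als2cl, the gene of the Rab5-binding protein, was the most abundant of the 4 and ran the other way. It stood at 4.67 and 31.4 FPKM in CKO, from 714 and 4779 reads, at 57.1 and 82.1 FPKM in BTg, from 7481 and 10556 reads, and at 37.3 and 48.0 FPKM in WT, from 5702 and 6292 reads. The groups did not overlap, but the CKO libraries differed 6.72-fold from each other, more than CKO replicate 2 differed from WT. That library was at 0.735 times the WT mean. The means were 18.0 ± 18.9 FPKM in CKO, 69.6 ± 17.7 in BTg and 42.7 ± 7.55 in WT (SD, n = 2 each). The BTg mean was 1.63 times the WT mean, with a range of 1.19 to 2.20.

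On the scale used for all genes, log2(FPKM + 1), the difference of CKO from WT was 1.27 (SE 0.20) for Ces2c, 1.28 (SE 0.20) for Cdk5r1, 1.37 (SE 0.25) for Gpr15 and -1.68 (SE 0.79) for Als2cl. The difference of BTg from WT was -0.50 for Ces2c, -0.05 for Cdk5r1, -0.82 for Gpr15 and 0.68 for Als2cl. The difference of BTg from CKO was -1.77, -1.32, -2.18 and 2.36 in the same order of genes. The comparisons share groups, so these values are not independent of each other. Without CKO replicate 1 the CKO difference from WT was 1.29 for Ces2c, 1.24 for Cdk5r1, 1.14 for Gpr15 and -0.42 for Als2cl. Without the library richest in neutrophil markers, Ces2c and Cdk5r1 were thus about as large, Gpr15 was somewhat smaller and Als2cl was smaller in size. With CKO replicate 1 as the sole CKO library, Als2cl was at -2.93. CKO replicate 2, which stayed in, summed to 1617 RPM for plasma cell, 389 for neutrophil and 160 for monocyte and dendritic cell markers. The highest such sums in BTg and WT were 1080, 318 and 108. Singly, 7 of 7, 7 of 8 and 5 of 8 of these markers had both CKO libraries above both WT libraries. In each list 0 had both below. Over the 10798 genes tested the shares were 11.5% above and 8.96% below. Both BTg libraries lay below both WT libraries for 2, 8 and 1 of the markers, and above for 0. Those shares over all genes tested were 10.4% and 14.7%. The part of other cells in these differences was not tested. The difference of Als2cl between BTg and CKO was 1.10 without CKO replicate 1. In bulk RNA, fewer cells carrying a transcript and less transcript per cell cannot be told apart.

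These differences can be placed among the 10798 genes tested, those that reached 1 FPKM in 2 or more libraries. All 4 genes passed that filter. In CKO against WT, 256 genes had a larger difference than Ces2c, 250 than Cdk5r1 and 221 than Gpr15, and 5 had a lower one than Als2cl. In BTg against WT, 533 genes were lower than Ces2c, 4033 lower than Cdk5r1, 172 lower than Gpr15 and 191 higher than Als2cl. In BTg against CKO, 3 genes were higher than Als2cl and 133 lower than Gpr15.

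**Figure D3:**
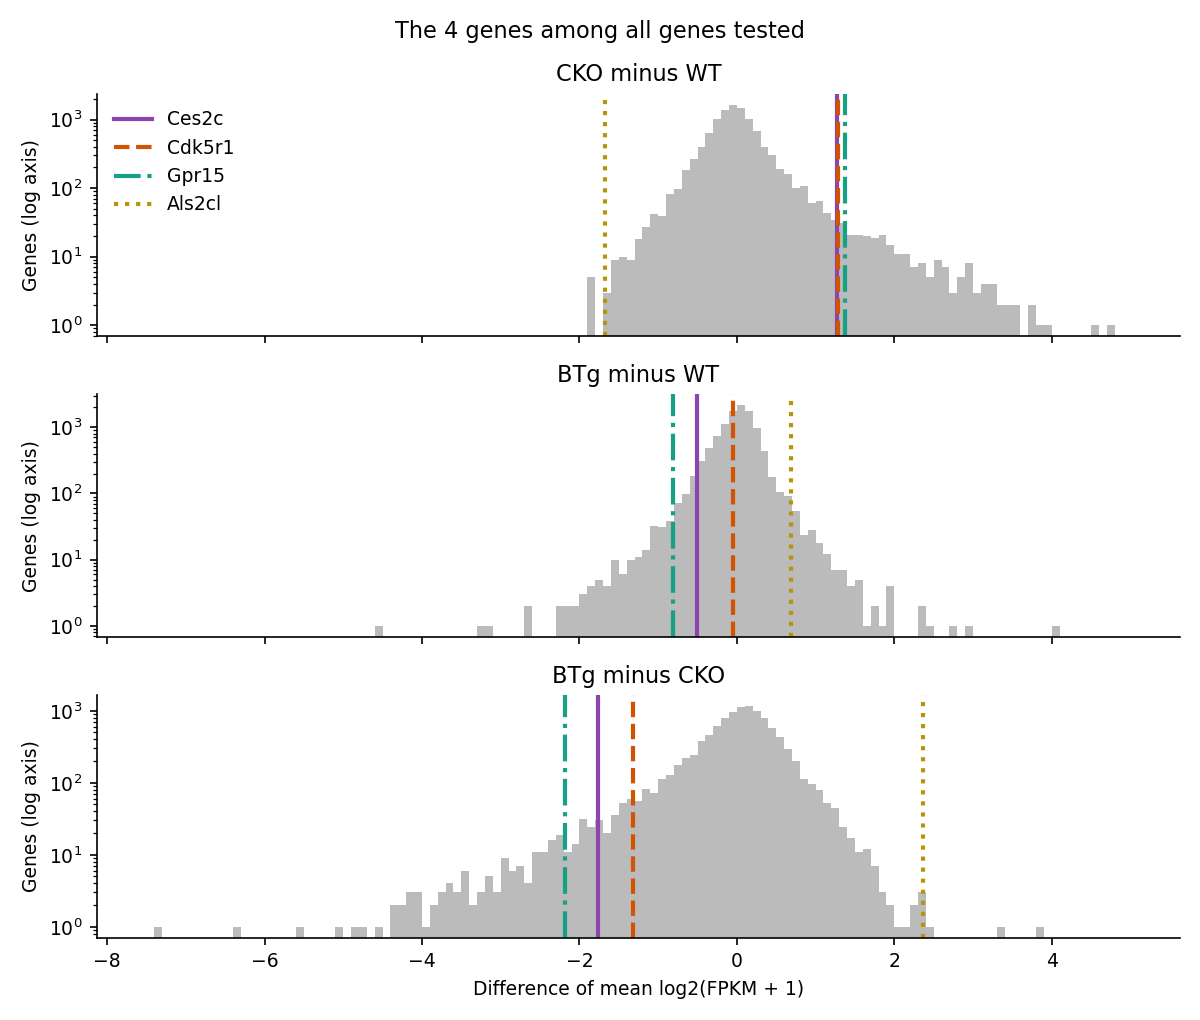
Difference of mean log2(FPKM + 1) (horizontal axis) of the 10798 genes tested, as counts of genes on a log axis, for CKO minus WT, BTg minus WT and BTg minus CKO. Coloured lines mark the 4 genes; Cdk5r1 sits at -0.05 in BTg minus WT, in the middle of all genes.

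Limma with Benjamini-Hochberg adjustment called 0% of these genes in CKO against WT at adjusted p under 0.05, where 454 had an unadjusted p under 0.05 and limma voom on recovered reads also called 0. It called 0.0185% in BTg against WT, with 175 at an unadjusted p under 0.05, and 0.0185% in BTg against CKO, with 949. Ces2c, Cdk5r1 and Gpr15 had both CKO libraries above both WT libraries, as did 11.5% of all genes tested, and Als2cl had both below, as did 8.96%. Ces2c and Gpr15 had both BTg libraries below both WT libraries, as did 10.4%, and Als2cl had both above, as did 14.7%. Between BTg and CKO, the first 3 were among the 21.8% of genes with both BTg libraries below, and Als2cl among the 17.8% with both above. The genes were chosen on these contrasts, so nothing is read from their counts. For the combined patterns, 8.82% of genes had both CKO libraries above all 4 others, as had Ces2c, Cdk5r1 and Gpr15. The full order with CKO highest and BTg below WT, that of Ces2c and Gpr15, was held by 2.76% of genes, or 298. The reverse order, that of Als2cl, was held by 2.14%, or 231.

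Levels can be compared between the genes once exon length replaces the deposited length, which counts introns and was 1.77 times exon length for Ces2c, 0.604 times for Cdk5r1, equal to it for Gpr15 and 1.46 times for Als2cl. On that scale the levels of Ces2c, Cdk5r1 and Gpr15 in WT were 1.68 ± 0.192, 1.67 ± 0.201 and 1.80 ± 0.458 FPKM (SD, n = 2 each), which differ by less than their spread. In CKO they were 6.50 ± 0.173 for Ces2c, 4.90 ± 0.188 for Cdk5r1 and 6.29 ± 1.64 for Gpr15. In BTg they were 0.663 ± 0.0907 for Ces2c, 1.43 and 1.77 in the 2 libraries for Cdk5r1, and 0.585 ± 0.135 for Gpr15, so that Cdk5r1 stood above the other 2 there. Als2cl was far above all of them in WT, at 54.5 and 70.1 FPKM on the exon length scale.

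The 4 genes followed each other across the 6 libraries to different degrees. On the log2(FPKM + 1) scale, Pearson's r was 0.976 between Ces2c and Gpr15, 0.958 between Ces2c and Cdk5r1 and 0.905 between Cdk5r1 and Gpr15. Als2cl ran against them, with r of -0.787 to Ces2c, -0.765 to Cdk5r1 and -0.881 to Gpr15. These r are a description over 6 points that come as 3 pairs, for genes picked on this pattern.

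Als2cl and Gpr15 overlap other genes on the opposite strand. Als2cl overlaps the start of Tmie, a gene known from hair cells of the inner ear, and the unclassified transcript Gm43127. Tmie stood at 1.03 and 5.05 FPKM in CKO, 11.04 and 11.3 FPKM in BTg, and 7.05 and 6.08 FPKM in WT. Gm43127 stood at 0.342 and 3.11 FPKM in CKO, 4.42 and 8.51 FPKM in BTg, and 3.55 and 5.03 FPKM in WT. Both were lowest in CKO replicate 1 and higher in both BTg libraries than in both CKO libraries, as Als2cl was, with r of 0.977 for Tmie and 0.986 for Gm43127 over the 6 libraries. Als2cl had 10.1 to 17.5 reads for each read of Tmie and 29.4 to 42.0 for each read of Gm43127, and 10.7% of its stretches of 50 bases lie in those transcripts. No source used here gives a strand setting, so reads that fall in these overlaps cannot be assigned to Als2cl or to its antisense partners. By limma neither partner passed the threshold: for Tmie the log2 difference was -1.11 in CKO against WT (adjusted p = 1), 0.69 in BTg against WT (adjusted p = 1) and 1.80 in BTg against CKO (adjusted p = 0.435).

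Gpr15 overlaps the end of Cpox, which encodes an enzyme of haem synthesis, and 9.75% of its stretches of 50 bases lie there. Cpox did not share its pattern, at 24.5 and 42.6 FPKM in CKO, 12.7 and 20.2 FPKM in BTg, and 9.60 and 55.3 FPKM in WT, with r of 0.313. Its libraries moved beside erythroid markers, whose 5 genes summed to 389 and 610 RPM in CKO, 109 and 171 in BTg, and 93.5 and 974 in WT, and the part of those cells in its level was not tested. Gpr15 was 2.13 FPKM in WT replicate 1 and 1.48 FPKM in WT replicate 2, the reverse of the order of Cpox. On the far side, Cldnd1, a claudin domain gene 8840 bases away, stood at 10.2 ± 0.199 FPKM in CKO, 6.32 ± 0.430 in BTg and 7.53 ± 0.483 in WT (SD, n = 2 each). Its groups had the order of Gpr15 over a narrower range, with log2 differences of 0.39 in CKO against WT (limma adjusted p = 1) and -0.62 in BTg against CKO (limma adjusted p = 0.494).

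**Figure D4:**
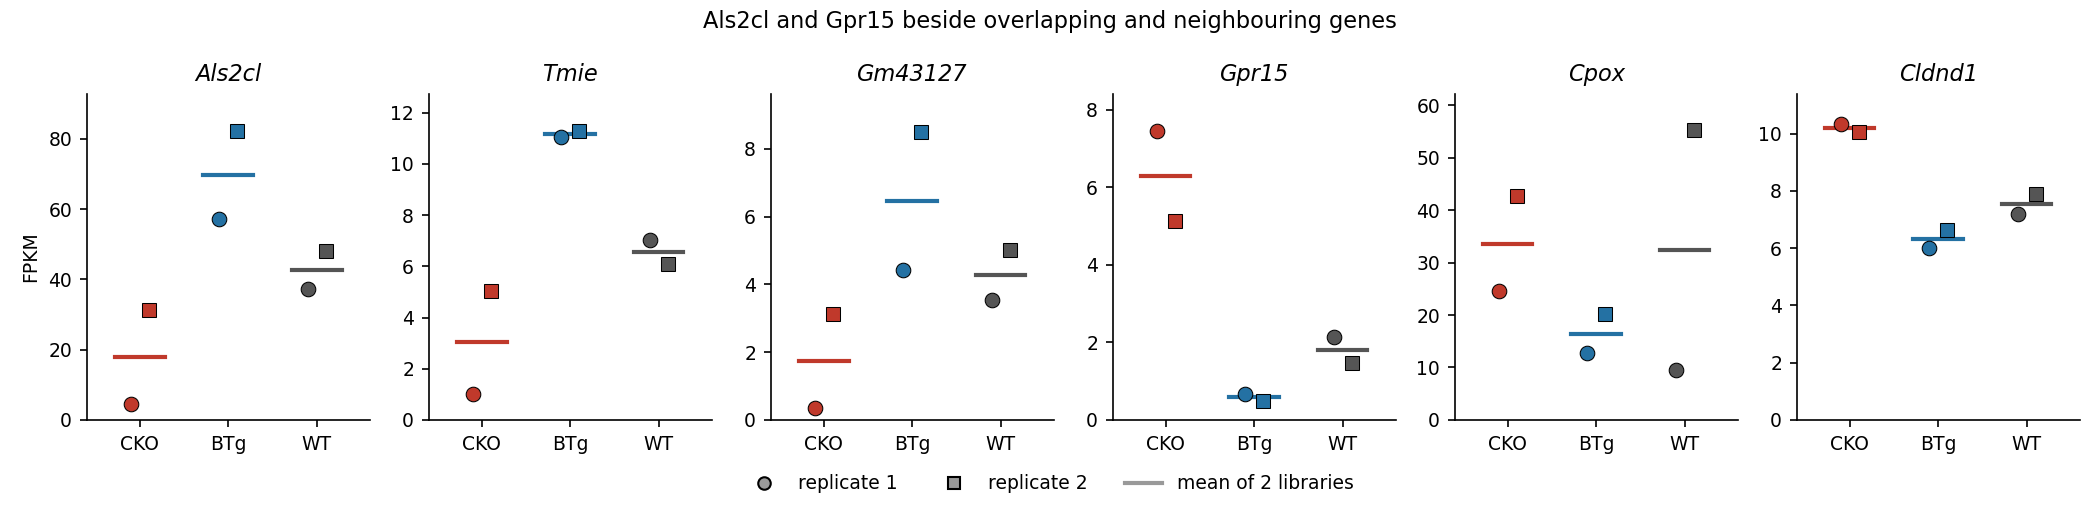
FPKM (vertical axes, each on its own scale) of Als2cl beside Tmie and Gm43127, which overlap it, and of Gpr15 beside Cpox, which overlaps it, and Cldnd1. Points are the CKO, BTg and WT libraries and bars their means; the first 3 genes are lowest in CKO replicate 1, while Cpox is widest within WT, at 9.60 and 55.3 FPKM.

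Other neighbours differed less between the groups, with exceptions near Als2cl. Psmd11, a proteasome subunit gene that ends 3775 bases before Cdk5r1, was at 3.26 and 3.26 FPKM in CKO, 2.80 and 2.80 FPKM in BTg, and 2.49 and 3.43 FPKM in WT, so that WT spanned both other groups. Myo1d, a myosin gene that lies 942 bases beyond Cdk5r1 on the other strand, was at 0.105 and 0.140 FPKM in CKO, 0.0448 and 0.0777 FPKM in BTg, and 0.0353 and 0.173 FPKM in WT, with CKO inside the range of WT. Within 200 kb there were 3 tested genes around Cdk5r1, 4 around Gpr15, 6 around Als2cl and 1 around Ces2c, and limma called 0 of them at adjusted p under 0.05 in each of the 3 comparisons. At unadjusted p under 0.05 there were 0 in CKO against WT and in BTg against WT, and in BTg against CKO 1 near Gpr15 and 4 near Als2cl, against 949 of all 10798 genes there. Of the 4 near Als2cl, Tmie and Gm43127, which overlap it, were higher in BTg than in CKO. The others, Ltf and Ccrl2, were lower, with log2 differences of -4.39 and -0.81. Ccrl2 was chosen after its values were seen. Of the nearest genes not yet named, St3gal6, a sialyltransferase gene beside Gpr15, was at 0.549 and 1.02 FPKM in CKO, 0.662 and 0.568 FPKM in BTg, and 0.618 and 1.13 FPKM in WT. Fam240a, 14209 bases beyond Als2cl, had 2 and 4 reads in CKO, 26 and 18 in BTg, and 20 and 13 in WT, with CKO lowest as for Als2cl. Prss50, a protease gene 15241 bases before Als2cl, had 33 and 51 reads in CKO, 40 and 53 in BTg, and 36 and 70 in WT. The neutrophil gene Ltf, chosen after its values were seen, lies within the window of Als2cl and ran against it, with a log2 difference of 3.37 in CKO against WT (limma adjusted p = 1).

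Of 18 other carboxylesterase genes listed, 5 were in the table and 1 was tested, Ces2g, which limma did not call. Ces2g, which lies 107 kb along the cluster, stood at 11.6 and 12.4 FPKM in CKO, 4.23 and 7.06 FPKM in BTg, and 4.27 and 15.8 FPKM in WT. Its WT libraries lay on either side of both CKO libraries, and it did not pass in any comparison, with limma adjusted p = 0.651 for the lowest, BTg against CKO. Ces2b, the nearest family member on the left, had 7 and 6 reads in CKO, 0 and 0 in BTg, and 1 and 2 in WT, and Ces2e on the right at most 1 read in any library.

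Around Cdk5r1, no listed gene of the Cdk5 pathway passed the test. Of 19 listed genes for Cdk5, its other partners, related kinases, calpains and substrates, 12 were tested. Limma called 0 of the 12 in each comparison, with 0 at unadjusted p under 0.05. Limma voom on recovered reads tested 18 and called 0. Under the filter, and chosen after their values were seen, Cables1, Cdk14 and Cdk18 had both CKO libraries above every BTg and WT library. Cables1 had 62 and 27 reads in CKO, 8 and 3 in BTg, and 9 and 19 in WT. Cdk14 had 16 and 11, 1 and 1, and 3 and 9, and Cdk18 43 and 13, 4 and 5, and 3 and 10. Their limma voom adjusted p was 0.290, 0.287 and 0.416 in BTg against CKO. Ccny, also under the filter, had both CKO libraries below every other library. Dpysl2 and Ptk2 overlapped between CKO and WT. The 12 genes had a median log2 difference of -0.08 in CKO against WT, 0.11 in BTg against WT and 0.17 in BTg against CKO. Over all genes tested the medians were -0.03, 0.02 and 0.06. Cdk5 itself stood at 6.63 and 9.08 FPKM in CKO, 8.31 and 9.74 FPKM in BTg, and 8.25 and 9.18 FPKM in WT, with all groups overlapping. Coro1a, the coronin 1A gene, stood at 726 and 815 FPKM in CKO, 1320 and 994.6 FPKM in BTg, and 1225 and 767 FPKM in WT. The other p35-type activator, Cdk5r2, was listed at 0 in 5 libraries and at 0.0239 FPKM in BTg replicate 2.

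Beside Gpr15, other homing receptors were split. Of 13 listed genes 10 were tested, with 0 called by limma in each comparison, and 3 in CKO against WT, 3 in BTg against WT and 4 in BTg against CKO at unadjusted p under 0.05. Over all 10798 genes those numbers were 454, 175 and 949. Limma voom on recovered reads tested 11 of the listed genes and gave 1 call, in BTg against WT. The 10 genes had a median log2 difference of -0.21 in CKO against WT, 0.04 in BTg against WT and -0.01 in BTg against CKO. Ccr9, the small intestine homing receptor, ran opposite to Gpr15, at 0.234 and 0.728 FPKM in CKO, 2.84 and 2.33 FPKM in BTg, and 1.22 and 0.913 FPKM in WT. Its groups did not overlap, and its log2 difference was 0.79 (SE 0.25) in BTg against WT (limma adjusted p = 1) and 1.29 (SE 0.25) in BTg against CKO (limma adjusted p = 0.258). Ccr6 and Ccr10, both chemokine receptors of mucosal and skin homing cells, had both CKO libraries above both WT libraries. Ccr6 stood at 2.17 and 2.497 FPKM in CKO, 1.09 and 0.886 FPKM in BTg, and 0.957 and 1.06 FPKM in WT. Ccr10, chosen after its values were seen, stood at 4.57 and 2.42 FPKM in CKO, 0.509 and 0.601 FPKM in BTg, and 0.620 and 1.39 FPKM in WT. The chains of the gut integrin overlapped more: Itga4 was at 11.6 and 21.6 FPKM in CKO, 11.9 and 15.5 FPKM in BTg, and 13.1 and 17.3 FPKM in WT. Itgb7 was at 72.0 and 120.5 FPKM in CKO, 134 and 142 FPKM in BTg, and 98.7 and 120.1 FPKM in WT. Itgae, another integrin gene of the list, was under the filter and chosen after its values were seen. It had the group order of Gpr15 without overlap, with 752 and 518 reads in CKO, 78 and 115 in BTg, and 156 and 205 in WT. Its limma voom adjusted p was 0.103 in BTg against CKO. The ligand gene of Gpr15, 2610528A11Rik, was at 0.0264 to 0.0680 FPKM in the 6 libraries.

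Among regulators linked to Gpr15, none passed the test. Of 11 listed, 9 were tested and limma called 0 in each comparison, with 1, 0 and 2 at unadjusted p under 0.05 (454, 175 and 949 of all 10798 genes). Limma voom tested 10 and called 0. The 9 genes had median log2 differences of -0.01 in CKO against WT, 0.14 in BTg against WT and 0.07 in BTg against CKO. Foxp3, the factor that defines regulatory T cells, stood at 6.02 and 8.88 FPKM in CKO, 3.27 and 3.80 FPKM in BTg, and 5.07 and 5.99 FPKM in WT. Its groups had the order of Gpr15, but its lower CKO library and its higher WT library were nearly equal. Its limma adjusted p was 0.442 in BTg against CKO. Ahr, the aryl hydrocarbon receptor gene, was under the filter, at 0.417 and 0.523 FPKM in CKO, 0.150 and 0.171 FPKM in BTg, and 0.149 and 0.251 FPKM in WT. Gata3, which directs type 2 helper cells, was at 2.95 and 4.85 FPKM in CKO, 5.67 and 5.92 FPKM in BTg, and 3.86 and 4.62 FPKM in WT. Smad3, a transducer of TGF-beta signals, was at 0.695 and 1.05 FPKM in CKO, 1.18 and 1.30 FPKM in BTg, and 0.813 and 0.975 FPKM in WT. For Gata3 and Smad3 the CKO and WT libraries overlapped. Batf, a transcription factor of activated T cells chosen after its values were seen, stood at 8.13 and 4.97 FPKM in CKO, 3.18 and 2.32 FPKM in BTg, and 4.17 and 2.54 FPKM in WT. Its CKO libraries lay above all others, while BTg and WT overlapped, and its log2 difference of 0.79 (SE 0.31) in CKO against WT did not pass (limma adjusted p = 1).

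Around Als2cl, no listed gene of the Rab5 proteins and their partners passed the test. Of 16 genes 11 were tested and limma called 0 in each comparison, with 0 at unadjusted p under 0.05. Limma voom tested all 16 and called 0. The 11 genes had median log2 differences of -0.13 in CKO against WT, 0.14 in BTg against WT and 0.26 in BTg against CKO. Rab5a stood at 2.52 and 3.21 FPKM in CKO, 4.18 and 3.37 FPKM in BTg, and 3.59 and 2.92 FPKM in WT. Rab5c stood at 9.99 and 9.04 FPKM in CKO, 10.6 and 8.93 FPKM in BTg, and 8.98 and 8.79 FPKM in WT. Rab5b lay between 4.72 and 6.12 FPKM in all 6 libraries. Under the filter, and chosen after their values were seen, Eea1 and Rin2 had the reverse order of Als2cl without overlap. Eea1, which encodes a tether of early endosomes that binds Rab5, stood at 0.978 and 0.934 FPKM in CKO, 0.262 and 0.300 FPKM in BTg, and 0.385 and 0.541 FPKM in WT. Rin2, a Rab5 exchange factor gene, had 255 and 150 reads in CKO, 20 and 44 in BTg, and 63 and 67 in WT. In BTg against CKO, limma voom on recovered reads gave adjusted p = 0.1003 for Eea1 and 0.156 for Rin2.

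**Figure D5:**
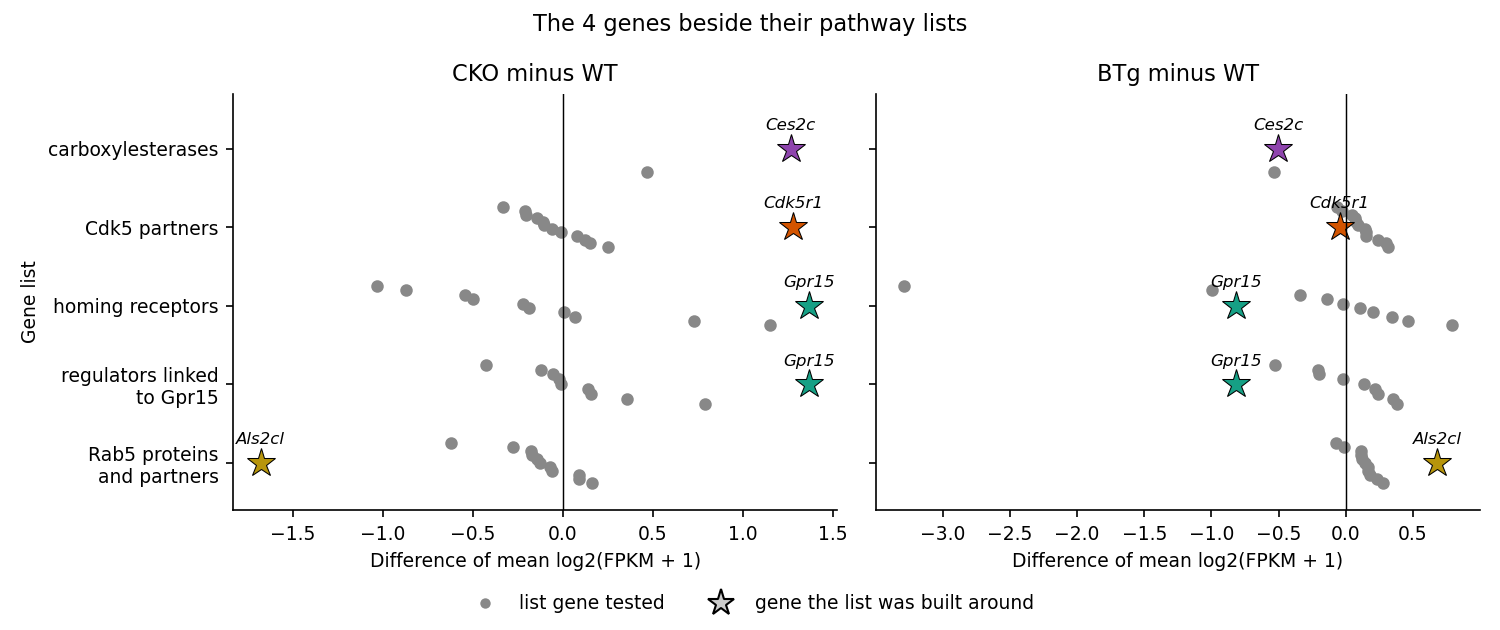
Difference of mean log2(FPKM + 1) (horizontal axis) for CKO minus WT and BTg minus WT. Grey points are the tested genes of 5 lists and stars the gene each list was built around. List genes under the filter are not drawn. In CKO minus WT the tested Cdk5 genes lie from -0.33 to 0.25, with Cdk5r1 at 1.28. The tested Rab5 genes lie from -0.62 to 0.16 there, with Als2cl at -1.68.

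The genes nearest in pattern were sought by Pearson's r on the log2(FPKM + 1) scale over the 6 libraries, among 6923 protein-coding genes tested whose highest group mean was at least 2 FPKM. Nearest to Ces2c were Tigit (0.995) and Pdcd1 (0.991), both inhibitory receptors of T cells, Zbtb32 (0.995), a zinc finger repressor, Dusp4 (0.992), a phosphatase of MAP kinases, and Cd200 (0.991), a surface ligand. Nearest to Gpr15 were Icos (0.999), a costimulatory receptor, Fam43a (0.990), Pdcd1 (0.990), Casp1 (0.990), the caspase of inflammasomes, and Rgs16 (0.989), an inhibitor of G protein signalling. Icos stood at 7.69 and 6.29 FPKM in CKO, 1.77 and 1.56 FPKM in BTg, and 3.23 and 2.75 FPKM in WT, and so had the same order of all 6 libraries as Gpr15. Nearest to Cdk5r1 were Rom1 (0.992), a tetraspanin known from photoreceptors, Abhd4 (0.990), a lipid hydrolase, Map3k8 (0.990), a kinase upstream of ERK, Hif1a (0.983), the oxygen-regulated transcription factor, and Axl (0.982), a receptor tyrosine kinase. Hif1a stood at 7.77 and 6.95 FPKM in CKO, 3.91 and 3.69 FPKM in BTg, and 3.51 and 3.82 FPKM in WT, with BTg and WT overlapping as for Cdk5r1.

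Als2cl had many more genes of like pattern than the others. At r of at least 0.95 there were 486 of 6923 genes for Als2cl, or 7.02%, against 43 for Ces2c, 35 for Cdk5r1 and 37 for Gpr15. Those nearest to Als2cl were Fance (0.998), of the Fanconi DNA repair complex, Rnf167 (0.997), a ubiquitin ligase, Slc25a23 (0.997) and Letm2 (0.997), both of mitochondria, and Azi2 (0.997), an adaptor of antiviral kinases. Each of these 5 was lowest in CKO replicate 1: Rnf167 stood at 42.4 and 84.7 FPKM in CKO, 101 and 112 FPKM in BTg, and 89.1 and 97.8 FPKM in WT. That library also held the smallest sum of T cell markers and the largest sums of plasma cell markers, 6115 RPM, and of monocyte and dendritic cell markers, 1009. The part of that makeup in the level of Als2cl was not tested.

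Markers of the cells in which 2 of these genes are best known were low throughout. The 5 measured of 7 epithelial and liver markers summed to 10.7 and 6.09 RPM in CKO, 2.29 and 2.61 in BTg, and 3.99 and 3.80 in WT, and the 5 neuron markers to 10.5 and 8.12, 3.61 and 3.61, and 4.33 and 5.70 in the same order of groups. Both sums were higher in both CKO libraries than in the 4 others, as Ces2c and Cdk5r1 were, and CKO replicate 1 was higher than CKO replicate 2. Most single markers of these 2 lists did not follow the sums. Of the 5 epithelial and liver markers, 1 had both CKO libraries above both WT libraries and 1 had both below. Of the 5 neuron markers, 1 had both above and 0 both below. Over all genes tested the shares were 11.5% above and 8.96% below. Ces2c had 14.7 and 15.2 RPM in CKO replicates 1 and 2, and Cdk5r1 had 21.0 and 19.9. Whether such cells gave reads of these genes was not tested.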

How the data were processed

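Ces2c, Cdk5r1, Gpr15 and Als2cl, and the lists around them, were chosen with earlier results of these data known. Per the labels' protocols, RNA was taken up in TRIzol and libraries were built with the NEBNext Ultra RNA kit. The submitters' processing notes name Trimmomatic 0.38, HISAT2 2.1.0, featureCounts 1.6.0 and GRCm38; settings, strand and annotation release were not found there. The authors deposited FPKM, 1 column for each library. Names and positions came from GENCODE M21, which matched all 28914 identifiers.

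Taking as length the median span of each gene's transcripts on the genome, 100% of FPKM values above 0 were whole reads within 0.01 in every library, which gave reads and totals; with exon length 21.2 to 22.9% were. This length acts on levels between genes, on the filter and on the pseudocount, not on ratios within a gene. Values were set to log2(FPKM + 1), a scale that understates changes of low genes, and all 6 libraries entered 1 limma 3.58.1 fit (R 4.3.3; eBayes with a trend, no block), adjusted by Benjamini-Hochberg over 10798 genes. The fit was also run on simulated data. Noise there was independent between libraries, with no library set apart as CKO replicate 1 is, so nothing is read from that run. A permutation test of 2 libraries against 2 cannot reach the threshold, so none was run. Named genes are these 4, Prdm1, the 5 nearest in pattern to each, the nearest or overlapping genes and a set named from each list; others are marked as chosen after their values were seen, and some list genes are not reported here. Intervals are exact (Clopper-Pearson). Alternatives were other pseudocounts, filters and normalizations, a fit without trend, limma voom on recovered reads, a replicate block and leaving out each library; exon length was added after seeing the data. Drawings used matplotlib 3.10.9.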

Additional observations from a re-analysis of the deposited data

How the results depend on the processing

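All 12 log2 differences of the 4 genes kept their sign under the 16 alternatives, except Cdk5r1 in BTg against WT. That one ran from -0.15 to 0.06 over the libraries left out. Nothing is read from the kept signs, since most were fixed in advance. Groups that do not overlap keep the sign under any pseudocount and any library left out. Other filters, the fit without trend and the replicate block leave the difference itself unchanged. The size of the differences moved with the scale. In BTg against CKO, limma voom on recovered reads gave -3.27 for Ces2c and -3.37 for Gpr15. A pseudocount of 0.1 gave -3.00 and -3.21. For Als2cl the library left out mattered most, with -2.93 to -0.42 in CKO against WT and 1.10 to 3.62 in BTg against CKO. Over the libraries left out, the number of genes called was 0 to 81 in CKO against WT, where 81 came without CKO replicate 2, 0 in each case in BTg against WT, and 0 to 255 in BTg against CKO, where 255 came without CKO replicate 2. Leaving out a library can leave 1 in its group, which is then assumed to vary like the others. With no filter on low values the counts were 65, 46 and 81 in the order CKO against WT, BTg against WT and BTg against CKO. Quantile normalization gave 0 in BTg against WT and 0 in BTg against CKO, and limma voom 4 and 7. The replicate block gave 0 and 0, with adjusted p = 0.130 for Prdm1 in BTg against WT; the numbers are shared by label only, and deviations of same-numbered libraries correlated at 0.173 to 0.469. Using exon length, chosen after seeing the data, gave 8 in BTg against CKO. Of the 43 list genes tested, 0 were called in each comparison. At unadjusted p under 0.05 there were 4 in CKO against WT, 3 in BTg against WT and 6 in BTg against CKO (454, 175 and 949 of all 10798 genes). Limma voom, whose filter on reads kept more of the list genes, called 1 in BTg against WT. The causes of these shifts were not tested. With 12 to 25 reads in BTg libraries, depth limits the ratios of Ces2c and Gpr15.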
